A study of Mus musculus with 27 samples.

Results

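The first response of macrophages to interleukin-4 (IL-4) was read as the difference between 3 libraries of cells given IL-4 for 0.5 h and 3 libraries of untreated cells. It was described across the genes that reached 10 normalised read counts in at least 3 of these 6 libraries, which were 11896 of the 45070 genes in the deposited table. All libraries came from bone marrow-derived macrophages (BMDMs), primary cells grown from the marrow of wild-type male C57/BL6 mice aged 6 to 8 weeks. Every culture, the untreated one included, was first kept for 1 h in DMSO, the solvent of the kinase inhibitors tested elsewhere in the study, and the treated cells then received IL-4 at 10 ng/ml. The labels give the untreated cells no further time after DMSO. Effects of the added 0.5 h or of handling therefore cannot be told apart from those of IL-4. The whole series held 27 libraries in 9 groups of 3 replicates, with later IL-4 times of 1, 2 and 4 h and a parallel course of lipopolysaccharide (LPS), a bacterial cell wall component. The comparison asks which genes gained or lost transcripts first. RNA was isolated together with chromatin, a fraction in which transcripts still being made predominate. Values are read counts per gene that the authors scaled on invariant genes, called normalised read counts here, and they do not give the sequencing depth of a library. The labels do not say whether the replicates came from separate mice or cultures, so the p-values measure the spread between these libraries only.

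IL-4 binds a receptor whose specific chain is the product of Il4ra. Janus kinases at this receptor phosphorylate the transcription factor STAT6, which enters the nucleus and binds DNA directly, while adaptor proteins of the IRS family carry a separate signal to phosphoinositide 3-kinase. In macrophages the programme that follows is called alternative activation, and it is known for the mannose receptor, arginine metabolism and the suppression of several inflammatory genes.

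Before the results, the state of the libraries was examined. The sum of normalised read counts was 2488987 to 2578543 in the untreated and 2749777 to 2790981 in the IL-4 libraries. Replicates 2 and 3 lay close together and replicate 1 stood apart in both groups. Over the 485 genes with a mean of at least 1000, the SD of the log2 difference between replicates 2 and 3 was 0.0909 untreated and 0.102 with IL-4, whereas replicate 1 differed from either of them with an SD of 0.38 to 0.439. The squared difference over the sum, averaged over the tested genes, was 1.36 untreated and 1.65 with IL-4 for replicates 2 and 3. For pairs with replicate 1 it was 9.97 to 12.6. Sampling alone would give 1 if each normalised count were 1 read, but these counts are scaled. The values cannot show whether replicates 2 and 3 are independent, and in the main fit they were kept as separate samples. Counts are therefore given below also without replicate 1 and with replicates 2 and 3 averaged. IL-4 replicate 2 listed 22929 genes above 0 against 18772 to 20239 in the other 5 libraries.

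The macrophage label was checked against marker genes. The 10 macrophage markers summed to 10064 to 11202 normalised read counts in untreated and 13204 to 14150 in IL-4 libraries, led by Adgre1, the gene of the F4/80 antigen. The 5 T cell markers summed to at most 3 in every library and the 5 B cell markers to at most 7, with Cd3e, Cd3g and Cd2 listed at 0 throughout. Neutrophil, mast cell and dendritic cell markers summed to at most 38, 7 and 19, with Ltf, Cpa3 and Flt3 leading. Fibroblast markers, led by Col1a2, summed to 37 to 88 untreated and 37 to 188 with IL-4, and the highest sum in each group was that of replicate 1. Endothelial markers summed to 49 to 59 untreated and 82 to 89 with IL-4, and erythroid markers, almost wholly Alas2, to 74 to 95 and 109 to 124. The part of these cells in the results was not tested, and in bulk RNA a change in the number of cells of a type and a change in RNA per cell cannot be told apart.

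At 0.5 h of IL-4 1076 genes, 9.05% of those tested, were higher than untreated and 1128, or 9.48%, were lower (limma, adjusted p under 0.05). They are called raised and lowered here. The rises reached further than the falls. The median size was 0.90 on the log2 scale for the raised and 0.70 for the lowered genes, and 474 rises against 251 falls reached 1 log2 unit. At 2 log2 units there were 120 rises and 8 falls, and at 3 log2 units 37 rises and 1 fall, that of Btg2, which had entered the test only through its untreated values. Over all tested genes the log2 fold change had a median of -0.04, and the median size of a change, without its sign, was 0.24. All 3 IL-4 libraries lay above all 3 untreated libraries in 13.9% of tested genes and below them in 17.0%. Of the raised genes 70 had entered the test only through their IL-4 values, and of the lowered genes 33 only through their untreated values. Such genes had to differ. How many of them are among the changes of at least 2 or 3 log2 units was not counted, so the counts by size are a description.

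The number of calls depended on the replicates. Without replicate 1 in any group 1436 genes were higher and 1742 lower, without replicate 2 these were 537 and 273, and without replicate 3 they were 602 and 308. With replicates 2 and 3 averaged, 624 genes were higher and 366 lower. Blocking on the replicate number gave 1516 higher and 1752 lower genes. When all libraries were brought to equal totals, the median of all tested genes moved from -0.04 to -0.17 on the log2 scale, 868 genes were higher and 2056 lower, so that 29.7% rather than 48.8% of the calls were rises. In none of the 20 other settings compared was a gene called in the direction opposite to that given here.

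**Figure D1:**
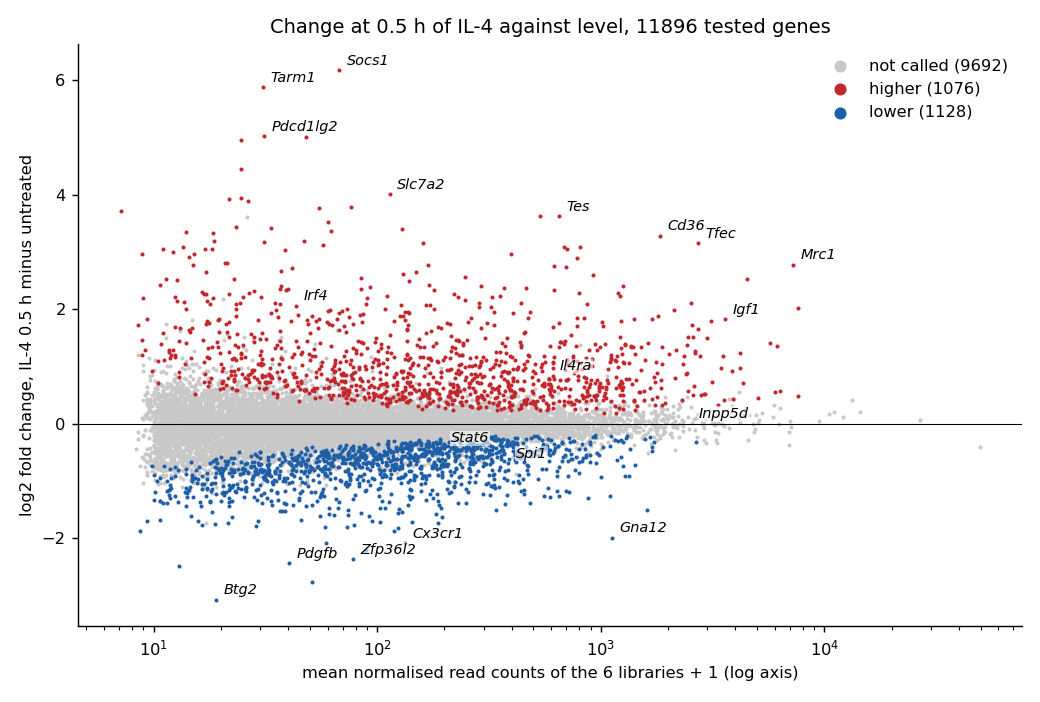
Each point is 1 of the 11896 tested genes, with the mean of the 6 libraries on the log x axis and the log2 fold change (IL-4 0.5 h minus untreated) on the y axis. Red points are the 1076 higher and blue points the 1128 lower genes, and the rises extend to 6.17 while the falls end at -3.08.

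The largest rises belonged to genes that were at or near 0 before IL-4. Socs1 encodes a feedback inhibitor that binds Janus kinases (chr16:10783808-10785536, minus strand, GRCm38). Untreated replicates 1 to 3 held 0, 2 and 1 normalised read counts, and the IL-4 libraries 104, 125 and 169 with IL-4. Tarm1, an activating receptor of myeloid cells, was listed at 0 in all untreated libraries and at 41, 63 and 75 with IL-4 (chr7:3486500-3502624). Socs1 and Tarm1 had entered the test only through their IL-4 values, so their groups had to differ. The lowest IL-4 library of each was many times the highest untreated one. The fitted log2 fold changes were 6.17 (SE 0.36, adjusted p = 4.47e-08) for Socs1 and 5.88 (SE 0.23, adjusted p = 1.13e-09) for Tarm1, but with such low starting values they depend on the pseudocount. Set against a level of 3 normalised read counts, the IL-4 mean was 44.2 times as high for Socs1 and 19.9 times as high for Tarm1.

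Pdcd1lg2, which encodes PD-L2, a ligand of the inhibitory T cell receptor PD-1, went from 1, 0 and 2 to 44, 73 and 61 (chr19:29410919-29472927). Rasgrp1, an exchange factor that activates Ras, went from 2, 1 and 3 to 98, 91 and 87 (chr2:117279983-117342877). Both had passed the filter only through their IL-4 values and so had to differ. Every IL-4 library lay far above every untreated one, and the IL-4 means of Pdcd1lg2 and Rasgrp1 were 19.8 and 30.7 times a level of 3. The fitted log2 fold change of Pdcd1lg2 was 5.02 (SE 0.32, adjusted p = 7.89e-08) and that of Rasgrp1 5.01 (SE 0.19, adjusted p = 1.13e-09).

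Slc7a2, a transporter of cationic amino acids, arginine included, had 12, 14 and 11 normalised read counts untreated and 184, 228 and 228 with IL-4 (log2 fold change 4.01, SE 0.14, adjusted p = 8.08e-10). Myc, the growth-promoting transcription factor, went from 6, 14 and 9 to 117, 145 and 160 (3.79, SE 0.27). Glrx, the thiol reductase glutaredoxin, went from 7, 3 and 12 to 92, 104 and 105 (3.76, SE 0.29). In these 3 genes no IL-4 library came near an untreated one. Ahr, the aryl hydrocarbon receptor, shared the smallest adjusted p of all tested genes with Slc7a2 and is named after its values were seen, at 84, 85 and 97 untreated and 773, 627 and 706 with IL-4 (2.97, SE 0.11, adjusted p = 8.08e-10). Dusp4, a phosphatase that switches off MAP kinases, stood at 9, 7 and 10 untreated and 94, 123 and 113 with IL-4, and Nfil3, a leucine zipper repressor, at 25, 22 and 17 and at 306, 198 and 204. Flt1, the receptor VEGFR1, stood at 7, 14 and 9 untreated and at 85, 159 and 94 with IL-4. The log2 fold changes of Dusp4, Nfil3 and Flt1 were 3.53, 3.39 and 3.36, with adjusted p-values of 2.70e-09, 2.32e-07 and 2.66e-07.

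The remaining 2 of the 12 largest rises started from higher values. Tes, which encodes the focal adhesion protein testin, had 71, 108 and 113 normalised read counts untreated and 950, 1303 and 1350 with IL-4 (3.62, SE 0.19, adjusted p = 1.53e-08). The non-coding gene Gm4876 overlaps Tes on the other strand and moved with it, from 60, 88 and 91 to 784, 1086 and 1109. Since the counting strand was not stated, reads of the pair cannot be assigned to one of them. Cd36, a scavenger receptor that takes up fatty acids and oxidised lipoproteins, had 334, 274 and 356 untreated and 1827, 3620 and 4604 with IL-4 (3.29, SE 0.33, adjusted p = 6.82e-06). IL-4 replicate 1 was well below the other 2 IL-4 libraries, but still above all untreated ones.

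**Figure D2:**
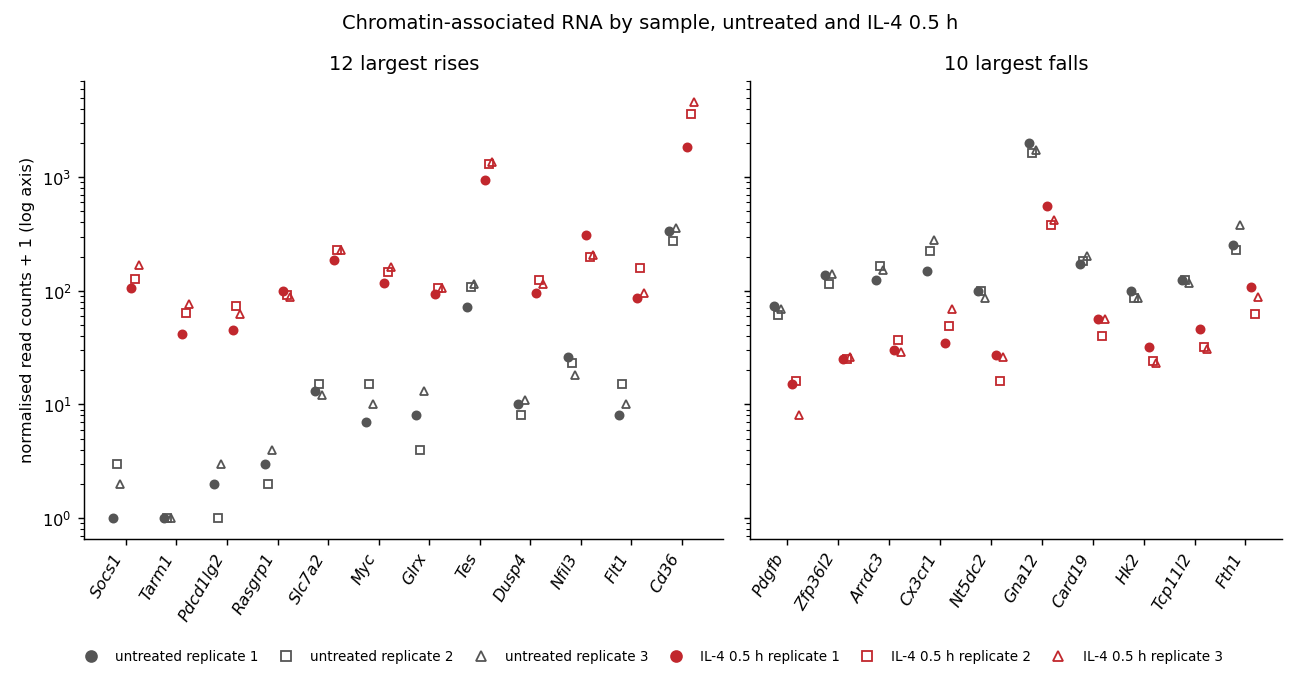
Normalised read counts plus 1 on a log axis for the 12 protein-coding genes with the largest rises and the 10 with the largest falls, with 1 symbol per library (untreated in grey, IL-4 0.5 h in red, replicates 1 to 3 as circle, square and triangle). The groups do not overlap in any of the 22 genes, which was a condition of choosing them. Socs1, Tarm1, Pdcd1lg2 and Rasgrp1 sit between 0 and 3 normalised read counts before IL-4.

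The promoters of the rises were searched for the 2 spacings of the palindrome bound by STAT factors, TTCNNNNGAA, the form that STAT6 prefers, and TTCNNNGAA, the general STAT form. Both patterns are symmetric, so a match on one strand is also a match on the other. RefSeq promoter windows (GRCm38.p6, 250 bases before to 50 after the start site) were found for 28 of the 37 named genes searched and for 9223 of the tested genes. The form with 4 spacer bases lay in 6.95% of all RefSeq windows and 5.56% of the windows of tested genes. It lay in 7.96% of those of raised and 4.61% of those of lowered genes. In genes changed by at least 1 log2 unit the share was 8.65% for the raised and 6.44% for the lowered, the latter above the share of all tested genes. The form with 3 spacer bases lay in 7.12%, 6.84% and 6.75% of the windows of tested, raised and lowered genes, and in 8.29% of all RefSeq windows. Of the 17 raised named genes with a window, 1 held the first form and 3 the second. The windows of 3 genes are shown, that of Pdcd1lg2 because it held the 4-base form and those of Rasgrp1 and Cish, chosen after their values were seen, because they are strong rises with the 3-base form. They are chr19:29410669-29410968 on the plus strand, chr2:117342828-117343127 on the minus strand and chr9:107296409-107296708 on the plus strand, each written 5′ to 3′ in the direction of its gene with the matches in capitals.
Pdcd1lg2: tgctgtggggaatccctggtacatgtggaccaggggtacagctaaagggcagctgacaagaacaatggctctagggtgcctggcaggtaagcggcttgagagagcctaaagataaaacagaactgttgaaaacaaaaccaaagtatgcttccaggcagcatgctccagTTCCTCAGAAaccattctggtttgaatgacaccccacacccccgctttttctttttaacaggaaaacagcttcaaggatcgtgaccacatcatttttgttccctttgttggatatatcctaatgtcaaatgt
Rasgrp1: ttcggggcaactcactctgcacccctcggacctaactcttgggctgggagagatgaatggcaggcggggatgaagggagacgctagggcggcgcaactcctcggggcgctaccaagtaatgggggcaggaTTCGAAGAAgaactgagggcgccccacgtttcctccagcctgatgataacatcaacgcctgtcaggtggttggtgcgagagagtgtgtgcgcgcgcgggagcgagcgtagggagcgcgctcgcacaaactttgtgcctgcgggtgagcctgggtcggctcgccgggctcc
Cish: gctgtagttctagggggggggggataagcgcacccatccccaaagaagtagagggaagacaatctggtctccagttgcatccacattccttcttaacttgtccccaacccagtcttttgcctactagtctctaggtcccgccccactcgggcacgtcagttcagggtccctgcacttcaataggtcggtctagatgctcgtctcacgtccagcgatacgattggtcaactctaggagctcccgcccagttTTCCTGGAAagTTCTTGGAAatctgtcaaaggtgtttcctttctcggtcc
The match TTCCTCAGAA of Pdcd1lg2 began 82 bases before the start site and the match TTCGAAGAA of Rasgrp1 began 120 bases before it. In Cish the matches TTCCTGGAA and TTCTTGGAA followed each other closely, the first beginning at the start site itself and the second 11 bases on. Socs1 and Tarm1 had a window with neither form, and the non-coding riser Gm40950 had the 3-base form 212 bases before its start. Of the 11 lowered named genes with a window, Tcp11l2 held the 4-base form. A match is a string of letters and not a measured binding site, and sites further away were not searched.

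Genes of the IL-4 receptor and its nearest signalling partners were called in both directions. Of 26 genes in this list 24 were tested, of which 6 rose and 6 fell, with a median log2 fold change of -0.06. Each direction holds 25.0% of the tested members, beside 9.05% raised and 9.48% lowered among all tested genes. Il4ra itself rose from 427, 397 and 471 to 1004, 624 and 727 (0.84, SE 0.17, adjusted p = 0.0025), so that all IL-4 libraries were above the untreated ones. Irs2, the adaptor that docks to the activated receptor, went from 60, 49 and 47 to 214, 170 and 164 (1.79, SE 0.16, adjusted p = 1.80e-06). Pik3r1, a regulatory subunit of phosphoinositide 3-kinase, went from 983, 803 and 823 to 1835, 1800 and 1793 (1.06, SE 0.08). Jak2 rose by 1.14 (SE 0.16), and the phosphatase genes Ptpn2 and Ptpn1, both of which restrain Janus kinase signals, by 0.81 (SE 0.07) and 0.69 (SE 0.16).

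In the opposite direction, Stat6 was slightly lower with IL-4, at 150, 179 and 177 against 209, 245 and 225 (-0.42, SE 0.12, adjusted p = 0.0225). This call was lost in 7 of the 21 alternatives, among them leaving out replicate 2 or replicate 3, and Stat6 overlaps Nab2. Ptpn6, which encodes the phosphatase SHP-1, fell more clearly, from 414, 408 and 462 to 225, 232 and 242 (-0.87, SE 0.09, adjusted p = 5.64e-06). The 6 falls became 1 without replicate 2 or without replicate 3 and 2 with these averaged. Akt1 and Pik3r5, a regulatory subunit of the gamma form of phosphoinositide 3-kinase, fell by 0.58 each on the log2 scale, and Stat5b fell by 0.35. Il13ra1, the partner chain of the IL-13 receptor, fell from 59, 47 and 44 to 33, 23 and 19. The 12 genes that did not pass included Jak1 (-0.13, SE 0.10), Jak3 (0.14, SE 0.18), Tyk2 (-0.16, SE 0.10) and Il2rg (-0.10, SE 0.33).

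Genes of the SOCS family feed back on cytokine receptors. Of 7 tested members 4 rose and 1 fell (57.1% and 14.3%, beside 9.05% and 9.48% of all tested genes). The median log2 fold change was 1.00. Besides Socs1, Cish rose from 1, 5 and 1 to 54, 32 and 48 (3.95, SE 0.34, adjusted p = 1.57e-06) and Socs2 from 1 in each library to 16, 13 and 15. Socs5 went from 159, 164 and 189 to 318, 378 and 332 (1.00, SE 0.09). Socs7 fell from 57, 50 and 48 to 35, 21 and 33 (-0.81, SE 0.21, adjusted p = 0.0121), a call lost in 6 of its 20 alternatives. Socs1, Cish and Socs2 passed the filter only through their IL-4 values, so they had to differ, and the count of rises is a description. Over the other 4 members the median was -0.24, a value computed after the data were seen. Socs3 was below the filter, at 3, 2 and 5 untreated and 5, 9 and 11 with IL-4.

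Effector genes of alternative activation mostly rose. Of 28 listed genes 17 were tested, 13 rose and none fell by limma, with a median log2 fold change of 2.78, and at an unadjusted p under 0.05 there were 14 rises and 0 falls. The 13 rises are 76.5% of the tested members, beside 9.05% of all tested genes. The list was chosen with earlier results of these data known, so this share is a description and not a test. Of the 17, 5 had passed the filter only through IL-4 (Mgl2, Pdcd1lg2, Ch25h, Tarm1 and Tmem26) and so had to differ. The median was 1.76 over the other 12, computed after the data were seen, and 2.07 over all 17 with a pseudocount of 8. Mrc1, the mannose receptor CD206, had 2386, 1541 and 1708 normalised read counts untreated and 13492, 11707 and 12783 with IL-4 (2.78, SE 0.14, adjusted p = 8.50e-09), and its groups were far apart. Tgm2, a protein cross-linking transglutaminase, went from 74, 87 and 97 to 238, 477 and 500 (2.16, SE 0.25, adjusted p = 2.67e-05). Ch25h, which makes 25-hydroxycholesterol, went from 1, 3 and 3 to 19, 35 and 44, or 10.9 times a level of 3.

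Further risers of this list, named after their values were seen, were Clec7a, the beta-glucan receptor dectin-1 (127, 153 and 144 untreated, 918, 1399 and 1361 with IL-4), the lectin Mgl2 (7, 1 and 1 against 33, 19 and 19), Tmem26 (5, 0 and 2 against 42, 41 and 34), Cd83 (112, 63 and 67 against 515, 290 and 325) and the prostaglandin synthase Ptgs1 (134, 99 and 67 against 320, 232 and 208). The non-coding gene Gm45969 overlaps Clec7a on the other strand and rose with it, from 133, 161 and 154 to 956, 1445 and 1401, and reads of this pair cannot be assigned either. Arg1, the arginase that gives alternative activation one of its classical readouts, stood at 6, 7 and 15 untreated and 13, 33 and 29 with IL-4. Its groups overlapped, and its call (1.33, SE 0.42, adjusted p = 0.039) was lost in 11 of its 20 alternatives. Retnla, Chil3, Ccl17 and Ccl22, other classical products of the programme, were at 0 or 1 in all 6 libraries.

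Of 19 tested transcription factors tied to the programme 12 rose and none fell by limma (3 falls at an unadjusted p under 0.05, and 3 falls with the replicate block), with a median log2 fold change of 1.13, and 2 of the 19 had passed only through IL-4. The 12 rises are 63.2% of the tested factors, beside 9.05% of all tested genes. These factors too were listed with earlier results of these data known, so the share is a description. Tfec, a factor of the MiT family found in macrophages, had 558, 531 and 562 untreated and 4788, 5300 and 4655 with IL-4 (3.15, SE 0.14, adjusted p = 3.81e-09). Egr2 went from 2, 1 and 5 to 54, 47 and 44 (3.90, SE 0.39, adjusted p = 5.30e-06). Irf4 went from 21, 16 and 10 to 102, 54 and 52 (2.06, SE 0.26, adjusted p = 5.11e-05). Smaller rises in genes named after their values were seen were those of Batf3 (2.27, SE 0.32), Ets2 (1.99, SE 0.20), the histone demethylase gene Kdm6b (1.79, SE 0.18), Ppargc1b (1.13, SE 0.29), Pparg (1.08, SE 0.20) and Hif1a (0.66, SE 0.11). Klf4 was below the filter, at 2, 1 and 5 untreated and 9, 18 and 11 with IL-4.

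Immediate early genes are those that many stimuli switch on within minutes. Of 15 tested 4 rose, 2 fell and 9 did not pass, with a median log2 fold change of 0.05 that turned to -0.07 at equal totals. The shares that rose and fell, 26.7% and 13.3%, stand beside 9.05% and 9.48% of all tested genes. Egr2 had passed the filter only through IL-4 and Btg2 only through the untreated libraries, so both had to differ and the counts are a description. Beside Egr2 the risers were Fosl2 (110, 122 and 135 untreated, 367, 570 and 618 with IL-4), Ier3 (10, 14 and 16 against 58, 49 and 58) and Atf3 (104, 100 and 113 against 347, 189 and 183), the last with a call lost in 7 of the 21 alternatives. Btg2, an antiproliferative gene, fell from 22, 30 and 46 to 3, 1 and 6, the largest fall of all tested genes (-3.08, SE 0.38, adjusted p = 4.33e-05). Fos was at 15, 19 and 45 untreated and 10, 4 and 10 with IL-4 (-1.53, SE 0.48, adjusted p = 0.038), a call lost in 10 of its 20 alternatives. Egr1, Junb, Nr4a1 and Dusp1 did not pass. Untreated replicate 3 was the highest of the 3 untreated libraries in each of them, and also in the lowered genes Btg2 and Fos.

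Of 13 tested primary targets of NF-κB, a factor that drives inflammatory genes, 5 rose and 2 fell (median 0.17), while 6 did not pass. Rises were 38.5% and falls 15.4% of these targets, beside 9.05% and 9.48% of all tested genes. Only 2 of these rises passed without replicate 2, without replicate 3 or with these averaged. Cd40 went from 44, 27 and 43 to 245, 152 and 150 (2.23, SE 0.25) and Nfkb1, which encodes the p105 precursor, from 835, 748 and 791 to 1309, 1384 and 1348 (0.77, SE 0.09). The chemokine gene Ccl4 and Tnfaip3, the gene of the inhibitor A20, rose by 1.86 (SE 0.43) and 1.75 (SE 0.42), both calls being lost without replicate 2 or without replicate 3. Nfkbiz fell from 199, 202 and 233 to 109, 95 and 100 and Nfkbid from 76, 109 and 110 to 32, 47 and 61, which are -1.05 (SE 0.20) and -1.09 (SE 0.20). The Nfkbiz call was lost without replicate 3 and the Nfkbid call without replicate 2. Both encode nuclear relatives of the IκB proteins. Nfkbia itself gave 0.04 (SE 0.26, adjusted p = 0.95), and Tnf and Il1b were below the filter.

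Of 22 tested interferon-responsive genes 3 rose and none fell by limma (5 rises and 0 falls at an unadjusted p under 0.05, 6 rises with the replicate block and 2 without replicate 2). The share of 13.6% that rose stands beside 9.05% of all tested genes, and the median of -0.03 beside the -0.04 of all genes. The risers were Irf7 (21, 20 and 25 against 46, 69 and 73), the guanylate-binding protein gene Gbp5 (22, 27 and 23 against 81, 48 and 48) and Stat2 (194, 225 and 245 against 385, 338 and 358), the last with a call lost without replicate 2. Rsad2 gave -0.39 (SE 0.52) and did not pass.

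Among 15 tested chemokine and chemokine receptor genes 4 rose and 2 fell (median 0.01, and -0.11 at equal totals), and 1 rise and 1 fall passed without replicate 3. The 4 rises are 26.7% and the 2 falls 13.3%, beside 9.05% and 9.48% of all tested genes. The monocyte-attracting chemokine gene Ccl7 went from 0, 2 and 2 to 35, 41 and 62, and its neighbour Ccl2 from 0, 6 and 3 to 13, 21 and 42. Both had passed the filter only through IL-4, and the Ccl2 call was lost without replicate 3. The median over the other 13 members was -0.07, again computed after the data were seen. Ccl3 stood at 30, 13 and 19 untreated and 57, 48 and 31 with IL-4, with an adjusted p of 0.0297 that was lost in 10 of its 20 alternatives. The fractalkine receptor gene Cx3cr1 fell from 147, 221 and 279 to 34, 48 and 68 (-2.09, SE 0.29, adjusted p = 0.000136), and the antisense gene Gm33858, which overlaps it, from 67, 92 and 105 to 9, 14 and 13, a pair whose reads cannot be told apart without the counting strand. Cxcr4, the receptor of CXCL12, stood at 90, 72 and 53 and at 48, 22 and 26 (-1.19, SE 0.32), a call lost in 8 of its 21 alternatives.

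Of 29 tested genes of cytokines, growth factors and their receptors 11 rose and 4 fell (median 0.14), which became 6 and 2 without replicate 2, and 2 of the 29, Hbegf and Il1r1, had passed only through IL-4. The 11 rises are 37.9% and the 4 falls 13.8%, beside 9.05% and 9.48% of all tested genes. Among ligands, Igf1 went from 2149, 1237 and 1418 to 6796, 5097 and 4895 (1.83, SE 0.22, adjusted p = 3.43e-05). Hbegf, the heparin-binding ligand of the EGF receptor, went from 2, 0 and 0 to 69, 39 and 31, or 15.4 times a level of 3. Pdgfb fell from 72, 60 and 68 to 14, 15 and 7, the largest fall among protein-coding genes with a mean of at least 50 (-2.44, SE 0.31, adjusted p = 5.45e-05).

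Among receptors, Csf2rb, the shared chain of the receptors for GM-CSF, IL-3 and IL-5, rose from 496, 492 and 579 to 997, 1133 and 1120 (1.05, SE 0.10). Ifngr1 rose by 0.76 (SE 0.11). Il10ra, the specific chain of the IL-10 receptor, fell from 469, 413 and 447 to 241, 176 and 211 (-1.09, SE 0.12, adjusted p = 9.91e-06), and Il17ra and the TNF receptor gene Tnfrsf1b fell by 1.03 and 0.44 on the log2 scale, both calls being lost without replicate 2. Csf1r, the receptor on which the growth of these macrophages depends, gave 0.18 (SE 0.11) and did not pass.

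Tyrosine kinase genes, a class that many clinical kinase inhibitors target, gave 6 rises and 2 falls among 31 tested (median 0.10, and -0.03 at equal totals). Rises were 19.4%, above the 9.05% of all tested genes, and falls 6.45%, below the 9.48% of all tested genes. There were 4 falls at equal totals and 5 without replicate 1. Beside Flt1 and Jak2, the Src-family kinase gene Fyn went from 428, 570 and 571 to 1229, 1409 and 1467 (1.39, SE 0.12, adjusted p = 1.24e-06). Tec, which acts downstream of antigen and cytokine receptors, went from 1369, 1151 and 1240 to 2547, 2268 and 2156 (0.89, SE 0.09). Csk, the kinase that inhibits Src-family members, went from 247, 273 and 294 to 545, 486 and 493 (0.90, SE 0.09). Mertk, which binds apoptotic cells, rose by 0.41 (SE 0.12), a call lost in 12 of the 21 alternatives. Ptk2b, which encodes Pyk2, gave -0.22 (SE 0.07), with a call lost in 14 of the 21 alternatives.

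Of 19 tested genes of sterol and lipid handling Cd36 alone rose and 3 fell, namely the lipid droplet gene Plin2 (150, 137 and 155 untreated, 91, 84 and 66 with IL-4), the cholesterol synthesis gene Hmgcs1 and Mylip, which marks the LDL receptor for degradation. The rise is 5.26% and the 3 falls are 15.8% of the tested members, beside 9.05% and 9.48% of all tested genes. Each of these falls was lost without replicate 2 and without replicate 3, and without replicate 1 there were 6. Of 8 tested heat shock genes none was called in either direction by limma, and the log2 fold changes ran from -0.60 to 0.41. At an unadjusted p under 0.05 there were 3 falls, and 3 were also called at equal totals. Among the macrophage markers Itgam (CD11b) rose from 679, 741 and 754 to 1408, 1758 and 1778, while Spi1, the gene of the macrophage factor PU.1, fell from 503, 448 and 474 to 305, 291 and 287 (-0.69, SE 0.10, adjusted p = 0.000236). Adgre1 rose by 0.45 (SE 0.07), a call lost without replicate 2 and with all 27 samples in the fit. Pecam1, in the endothelial list but also expressed by myeloid cells, went from 5, 7 and 9 to 29, 27 and 20.

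**Figure D3:**
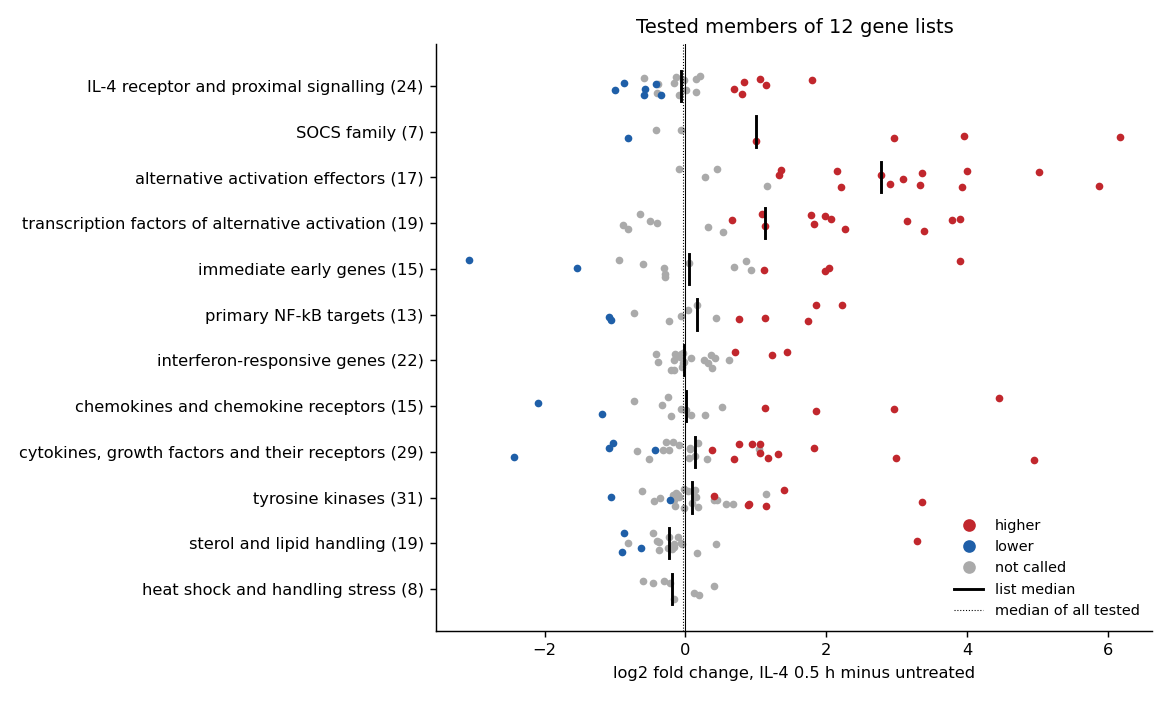
Log2 fold changes (IL-4 0.5 h minus untreated) of the tested members of 12 gene lists, 1 point per gene, with the number tested in brackets, the list median as a bar and the median of all tested genes as a dotted line. The medians are 2.78 for the effectors and 1.13 for the transcription factors of alternative activation and 1.00 for the SOCS family, and they include 5, 2 and 3 genes that passed the filter only through IL-4, without which they are 1.76, 1.08 and -0.24. The lists were chosen with earlier results of these data known.

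Zfp36l2, an RNA-binding protein that speeds mRNA decay, went from 138, 113 and 139 to 24, 24 and 25 (-2.36, SE 0.15, adjusted p = 9.06e-08), the smallest adjusted p among the 10 largest falls. Gna12, a G protein alpha subunit, fell from 1999, 1626 and 1737 to 561, 380 and 415 (3.99-fold lower, SE 0.18 on the log2 scale, adjusted p = 2.27e-06). Arrdc3, an arrestin-related regulator of membrane receptors, went from 124, 163 and 151 to 29, 36 and 28 (-2.20, SE 0.23). In each of these the highest IL-4 library was far below the lowest untreated one. The 10 largest falls too were chosen for groups that did not overlap.

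The remaining falls included metabolic genes. Hk2, the hexokinase that opens glycolysis, went from 99, 85 and 86 to 31, 23 and 22 (-1.80, SE 0.25), and Fth1, the heavy chain of the iron store ferritin, from 250, 227 and 380 to 107, 61 and 87 (-1.74, SE 0.25). The log2 fold changes of Nt5dc2, Card19 and Tcp11l2 were -2.09, -1.87 and -1.77, and Nt5dc2 overlaps Stab1. Among non-coding genes LOC115488151, which overlaps Lhfpl2, gave -1.83 and Gm51623, which overlaps Pgap1, -1.80. The remaining large non-coding rise was Gm40950, from 4, 6 and 4 to 76, 51 and 53, whose end lies beside the 3′ end of Nfil3 on the opposite strand. None of the 28 genes named for the size of their change lost its call in any alternative. They were chosen from these same libraries for large called changes without overlap, so this is a description and not a separate test.

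The share of genes called differed with gene length. Among protein-coding genes under 5 kb 5.33% were higher and 6.24% lower, and among those of 50 to 100 kb 12.5% and 14.3%. Above 100 kb rises stayed at 12.6% and falls were 4.85%, and 0.352% had fallen at least 2-fold against 2.89% of those under 5 kb. The level of expression moved with length, since the median untreated value was 19.7 normalised read counts under 5 kb and 383 above 100 kb, and its part in the calls was not tested. The median length was 37.5 kb for raised, 31.3 kb for lowered and 26.8 kb for all tested protein-coding genes. Non-coding genes made up 12.8% of the raised and 9.22% of the lowered genes, against 14.6% of all tested, and 47.9%, 44.9% and 49.3% overlapped another gene.

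**Figure D4:**
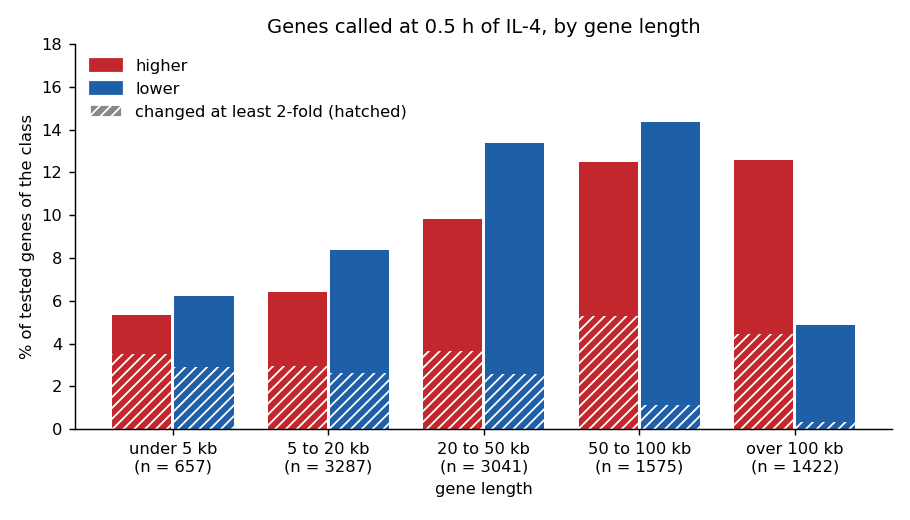
Percentage of tested protein-coding genes called higher (red) or lower (blue) at 0.5 h of IL-4 in 5 classes of gene length, with the share that changed at least 2-fold hatched. In the class above 100 kb 12.6% were higher and 4.85% lower.

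The later IL-4 libraries show how the first changes went on. Between 0.5 and 1 h of IL-4 1105 of the tested genes differed, or 9.29%, of which 595 were higher and 510 lower at 1 h. That count was 2303 without replicate 1, 96 without replicate 2 and 98 without replicate 3, and 2263 with the replicate block. The comparisons share the 0.5 h libraries, so the values are given side by side.

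Several of the rises were higher still at 1 h. Pdcd1lg2 had 59.3 ± 14.6 normalised read counts at 0.5 h (SD, n = 3), 183 ± 19.2 at 1 h and 582 ± 98.1 at 4 h, and the step from 0.5 to 1 h was 1.63 on the log2 scale (SE 0.32, adjusted p = 0.00526). Flt1 rose from 113 ± 40.4 at 0.5 h to 328 ± 80.9 at 1 h and 1169 ± 56.5 at 4 h. Rasgrp1 went from 92.0 ± 5.57 to 233 ± 16.8 and 483 ± 69.9, and Cish from 44.7 ± 11.4 to 121 ± 10.1 and 254 ± 52.5. All 4 passed the test between 0.5 and 1 h. Irf4 was at 69.3 ± 28.3, 94.7 ± 15.9 and 399 ± 34.0 at the same times, and its step to 1 h was 0.50 (SE 0.26, adjusted p = 0.28).

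Cd36, Tes, Ch25h, Myc and Itgam had their highest mean at 0.5 h. Cd36 fell back from 3350 ± 1408 at 0.5 h to 151 ± 24.0 at 2 h, below its untreated 321 ± 42.4, and the difference between 4 h and 0.5 h was -4.49 (SE 0.33, adjusted p = 3.87e-07). Tes went from 1201 ± 219 to 440 ± 89.0 at 2 h and 129 ± 10.1 at 4 h, near its untreated 97.3 ± 22.9. Ch25h went from 32.7 ± 12.7 to 5.33 ± 3.51 and 1.33 ± 0.577. Myc stood at 141 ± 21.8, 49.7 ± 16.2 and 40.3 ± 7.77, above its untreated 9.67 ± 4.04 at both later times. Itgam stood at 1648 ± 208 at 0.5 h and 223 ± 14.3 at 4 h, under its untreated 725 ± 40.1. Socs1 and Mrc1 had their highest means later. Socs1 stood at 133 ± 33.2 at 0.5 h, had 177 ± 18.6 by 1 h and 196 ± 63.7 by 2 h, and was at 139 ± 41.6 after 4 h. Its differences from 0.5 h did not pass, at 0.44 (SE 0.36, adjusted p = 0.53) for 1 h and 0.54 (SE 0.36, adjusted p = 0.30) for 2 h. Mrc1 had 12661 ± 899 at 0.5 h, then 15654 ± 1002 by 1 h and 7659 ± 544 after 4 h.

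The falls recovered to different degrees. Zfp36l2 returned from 24.3 ± 0.577 at 0.5 h towards its untreated 130 ± 14.7, with 4 h above 0.5 h (adjusted p = 4.70e-07). Tcp11l2 was back at 85.7 ± 3.21 by 1 h, a step of 1.28 (SE 0.17, adjusted p = 0.000326), and reached 131 ± 20.4 at 4 h against 121 ± 4.36 untreated. Gna12 stood at 1042 ± 117 at 4 h against 1787 ± 192 untreated. Cx3cr1 had lower means still, going from 34, 48 and 68 at 0.5 h to 24.3 ± 10.2 at 1 h and 17.3 ± 2.31 at 4 h. Its step to 1 h was -1.03 (SE 0.29, adjusted p = 0.0434), which is near the threshold and was not followed in the alternatives. Reads of Cx3cr1 cannot be told apart from those of Gm33858.

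**Figure D5:**
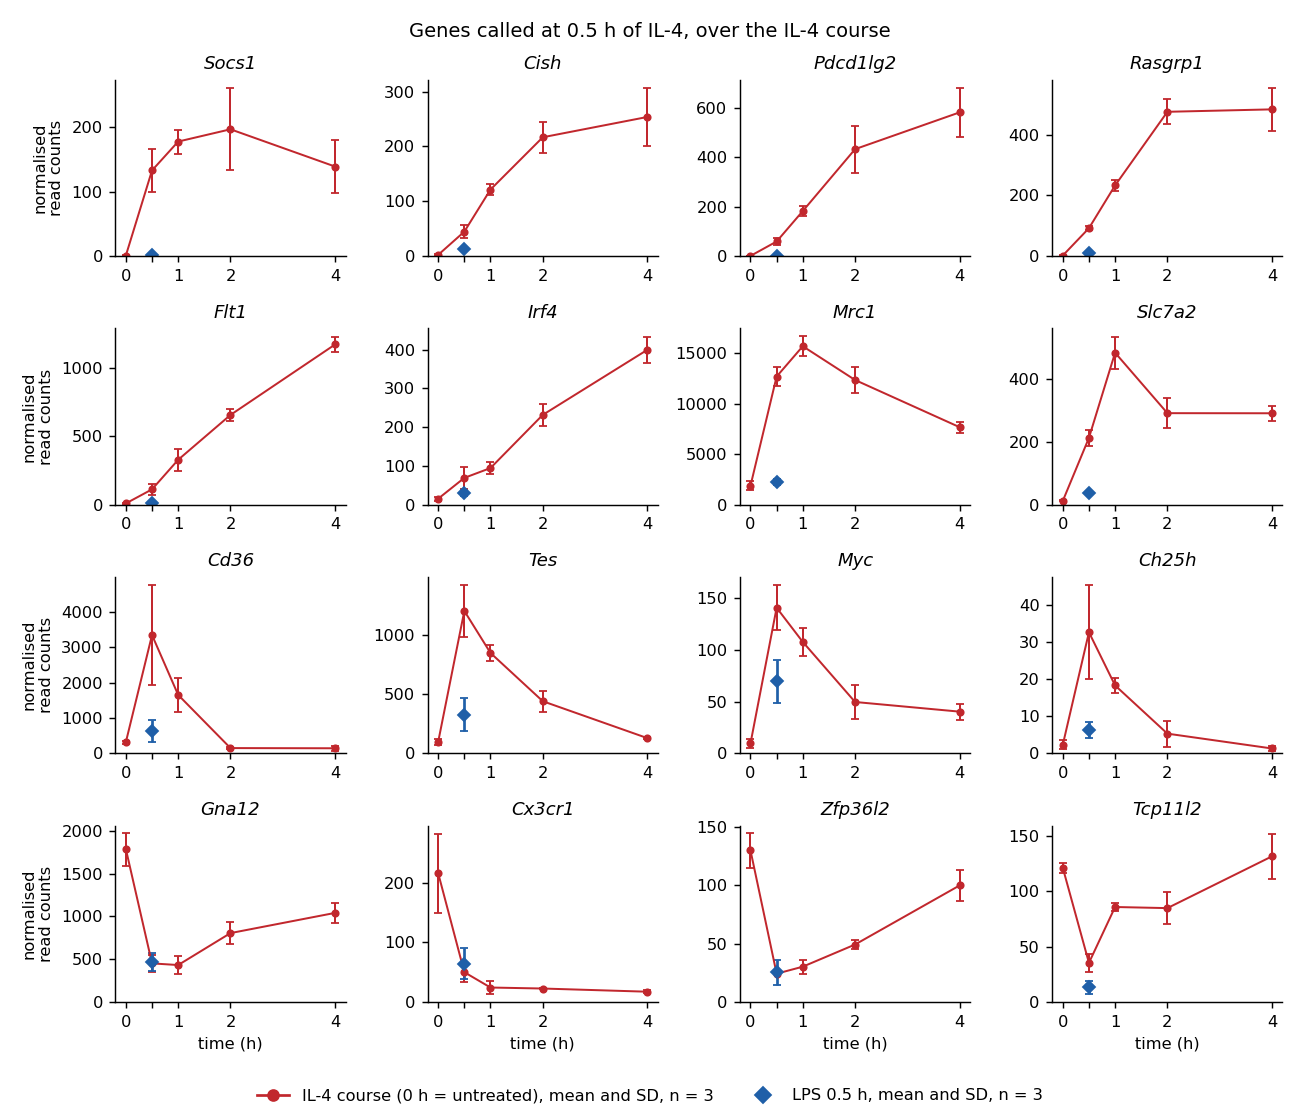
Mean normalised read counts with SD (n = 3) of 16 genes over the IL-4 course in red, with untreated cells at 0 h, and at 0.5 h of LPS in blue. Pdcd1lg2, Flt1 and Irf4 rise to 4 h, Cd36, Tes, Myc and Ch25h peak at 0.5 h, and Cx3cr1 stays low while Tcp11l2 returns to its untreated level.

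IL-4 was also compared directly with LPS at 0.5 h. The stimuli differed in 6751 of the tested genes, or 56.8%, of which 4704 were higher and 2047 lower with IL-4 (limma on all 27 libraries). The LPS libraries had larger sums, 3571492 to 3671910 normalised read counts, and the median difference of all tested genes was 0.29 on the log2 scale. At equal totals this median was 0.66, with 6593 genes higher and 1262 lower with IL-4, so that rises were 83.9% rather than 69.7% of the calls. Socs1 was at 133 ± 33.2 with IL-4 and 2.00 ± 1.00 with LPS, and the difference was 5.51 (SE 0.42, adjusted p = 1.16e-10). Pdcd1lg2 was at 2.33 ± 1.53 with LPS, Flt1 at 11.0 ± 2.00 beside 10.0 ± 3.61 untreated, and Mrc1 at 2291 ± 293 beside 1878 ± 448 untreated, and all 3 were higher with IL-4 than with LPS. Ahr was at 702 ± 73.1 with IL-4 and 17.3 ± 1.15 with LPS, the latter below its untreated 88.7 ± 7.23, a difference of 5.26 (SE 0.19, adjusted p = 2.71e-16). Gm40950 and Socs2 were at 5.00 ± 1.73 and 0.667 ± 1.15 with LPS.

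Other genes of the IL-4 response were also high with LPS. Dusp4 was at 110 ± 14.7 with IL-4 and 89.3 ± 17.4 with LPS, a difference of 0.31 (SE 0.26, adjusted p = 0.34) that passed at equal totals (0.68, adjusted p = 0.0198). Ccl7 was at 46.0 ± 14.2 and 47.7 ± 8.96 (-0.08, SE 0.49, and 0.30 at equal totals). Tfec was higher with LPS, at 12247 ± 1760 against 4914 ± 341, and so were Egr2 at 134 ± 8.72 against 48.3 ± 5.13 and Tgm2 at 1556 ± 64.4 against 405 ± 145. The NF-κB targets lay much further apart, with Cd40 at 2665 ± 443 with LPS and 182 ± 54.3 with IL-4, and Tnfaip3 at 4691 ± 209 and 75.3 ± 34.2. Irs2 was at 254 ± 28.3 with LPS and 183 ± 27.3 with IL-4, which did not pass the test (-0.48, SE 0.30, adjusted p = 0.19).

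Some of the lowered genes were low with either stimulus. Zfp36l2 was at 25.7 ± 10.7 with LPS and 24.3 ± 0.577 with IL-4, and Gna12 at 468 ± 101 and 452 ± 96.0, differences that did not pass (0.00, SE 0.30, and -0.05, SE 0.20) and had the opposite sign at equal totals (0.36 and 0.34). Cx3cr1 was at 64.3 ± 26.5 with LPS (-0.31, SE 0.62, and 0.06 at equal totals). By contrast Fth1 was at 732 ± 29.7 with LPS, above its untreated 286 ± 82.5, and at 85.0 ± 23.1 with IL-4, and Hk2 at 177 ± 61.9 and 25.3 ± 4.93. Pdgfb and Nt5dc2 were higher with LPS by 3.33 (SE 0.34) and 3.15 (SE 0.33) log2 units. Spi1 was at 997 ± 154 with LPS and 294 ± 9.45 with IL-4, and Btg2 at 170 ± 21.7 and 3.33 ± 2.52, so both moved in opposite directions from their untreated levels of 475 ± 27.5 and 32.7 ± 12.2.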

How the data were processed

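Chromatin-associated RNA was sequenced from BMDMs. Per the study's methods, libraries followed a random-primed Smart-seq2 procedure and reads were aligned to mm10 with TopHat2 2.1.1, reads with several hits or in blacklisted regions were removed, and the rest were counted per RefSeq gene (GRCm38.p6). The deposited values are whole-number scores, namely counts that the authors scaled on invariant genes and rounded, so no count model was used. Whether counting used strand is not given in the sources used here.

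Genes with at least 10 in at least 3 of the 6 libraries were kept. log2(value + 1) was tested with limma 3.58.1 (R 4.3.3, mean-variance trend, Benjamini-Hochberg adjustment over 11896 genes, threshold 0.05) on the 15 untreated and IL-4 libraries, or all 27 for LPS. Changes of low genes are understated on this scale. Tables were made with Python 3.11.15 and pandas 2.3.3, and the fit was tested on simulated data. Same-numbered libraries deviated together over genes (correlations 0.7575, 0.4047 and 0.5372), so a replicate block was fitted as an alternative. IL-4 replicate 2 with untreated replicate 3 (0.4047) and IL-4 replicate 3 with untreated replicate 2 (0.4163) were as high, so replicate 1 stood apart and numbers 2 and 3 were not told apart.

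Named genes were 19 fixed genes, the 12 largest rises and 10 largest falls among protein-coding genes and 3 of each among non-coding genes (mean of at least 50 in the higher group, no overlap), and up to 4 per direction and list. Members and lists were chosen with earlier results of these data known. Alternatives changed the pseudocount, filter, scaling, samples, block, weights and threshold. Some listed genes are counted in their lists but not reported here by name.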

Additional observations from a re-analysis of the deposited data

How the results depend on the processing

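Of the tested genes 1076 were higher and 1128 lower. At equal totals 2056 were lower, with all 27 samples 728, with the replicate block 1752, with replicates 2 and 3 averaged 624 were higher and 366 lower, and at an adjusted p under 0.01 611 were lower. Leaving out 1 replicate gave 537 to 1436 higher and 273 to 1742 lower genes. Rises were 48.8% of the calls, against 29.7% at equal totals, 63.0% with replicates 2 and 3 averaged, 66.3% without replicate 2 and 66.2% without replicate 3. Genes differing between IL-4 and LPS numbered 6751, against 4077 with a mean of at least 50 (fewer genes tested) and 5121 to 7223 without 1 replicate. Genes differing between 1 h and 0.5 h numbered 1105, against 2263 with the replicate block, 121 with replicates 2 and 3 averaged and 96 to 2303 without 1 replicate. The cause of these differences was not tested. Of the genes named by the rule, none changed direction between IL-4 0.5 h and untreated in any alternative run, and the other genes named were not followed one by one. Between IL-4 and LPS, Zfp36l2, Gna12, Cx3cr1 and Ccl7, none of them past the threshold, had the opposite sign at equal totals. Sequencing depth is not given by scaled values. Precision rests on the spread between the 3 libraries of each group, estimated over the 15 untreated and IL-4 libraries, or all 27 for LPS. With the 6 compared libraries alone 885 genes were higher and 813 lower.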

Other observations

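Some listed genes missed the filter but had no value in common between the groups. Cdh1, the gene of E-cadherin, was listed at 0, 0 and 0 untreated and 5, 42 and 38 with IL-4. The transcription factor gene Gata3 stood at 0, 1 and 0 and at 9, 6 and 6, the chemokine gene Ccl24 at 0, 2 and 0 and at 7, 11 and 12, and the receptor kinase gene Flt3 at 1, 0 and 1 and at 5, 13 and 12. In the other direction, the transcription factor gene Cebpb stood at 6, 5 and 4 untreated and 1, 1 and 2 with IL-4. The TNF superfamily gene Tnfsf9 stood at 6, 11 and 11 and at 5, 3 and 5. All these genes were chosen after their values were seen and have no test here. How many listed genes below the filter lay apart in each direction was not counted.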
